A study of Mus musculus with 8 samples.

Results

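The 44 genes described here mark stages in the making of new neurons, and were followed in the striatum of 4-week-old male R6/2 and wild-type (WT) mice. They are 20 proliferation genes of the cell cycle, 17 genes of migrating neuroblasts and immature neurons, and 7 genes of neural progenitors and the Notch pathway. Members were taken from a list of gene symbols, drawn up with earlier results of these data known, and were matched to 70 of the 55681 probes of the array. Of these, 61 probes of 43 genes were bright enough to be tested, out of 35121 tested probes and 16881 tested genes in all. The remaining member, Cenpf, a kinetochore protein gene, had 1 probe, which was well above background on 0 of 8 arrays.

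The R6/2 line is a mouse model of Huntington's disease in which the promoter of human huntingtin drives the start of that gene, with a long CAG repeat, so that only a fragment of the mutant protein is made. Total striatal RNA was hybridised to 1-colour arrays, with 4 arrays of R6/2 mice and 4 arrays of WT mice, all male and 4 weeks old. The labels number the samples as replicates without tying each to an animal of its own, so the errors and p-values cover the spread among these 4 samples per genotype, some of which may be technical. All 8 arrays lay on 1 slide scanned in 1 run, with R6/2 on slide row 2 and WT on slide row 1, so slide row and genotype cannot be told apart. The 75th percentile of the processed signal was 434 to 486, 61.5% to 67.7% of probes exceeded background clearly, and 0 spots were saturated. The probe of Gm12695, the reported site of the transgene, read clearly above background on 4 of 4 R6/2 arrays and 0 of 4 WT arrays. R6/2 array 3 was the lowest R6/2 array for most proliferation and immature neuron genes, and values without it are given with the results. The defining markers of striatal projection neurons were above background. Of the 12, 7 were called lower in R6/2, against 1.49% of all tested genes. Among these 7, the smallest p-values were those of Penk (log2 difference -1.11), an opioid peptide precursor, and Pde10a (-0.99), a phosphodiesterase. Next came Adcy5 (-0.89), an adenylyl cyclase, and Ppp1r1b (-0.73), which encodes DARPP-32.

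In the postnatal forebrain, dividing progenitors persist in the subventricular zone, which lines the lateral ventricle next to the striatum. Progenitors held undifferentiated by Notch signalling enter the cell cycle. Their daughters become neuroblasts that switch on Dcx, Sox11 and related genes and migrate, mostly towards the olfactory bulb. A striatal dissection can carry part of this zone, and oligodendrocyte precursors dispersed through the striatum also divide. In bulk tissue, fewer cells of a type and less RNA per cell cannot be told apart. Several of the immature neuron genes, such as Stmn1, Stmn2, Tubb3, Basp1 and Elavl4, are also expressed in mature neurons.

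The promoters of the members were searched for motifs known from cell cycle promoters, as a description with no test between roles. Of the 44 members, 35 matched a RefSeq promoter window of 300 bases, 250 before the gene's start and 50 after it (GRCm38.p6). Ccna2, Ccnd1, Ccnd2, Cd24a, Dpysl3, Igfbpl1, Stmn1, Stmn2 and Tubb2b were not matched. Each window was searched on both strands for 3 such elements. They were CCAAT, the box bound by the factor NF-Y, the cell cycle homology element written TTTGAA or TTTAAA, and the core of the site known for E2F factors. That core was searched as TTTCCCG, in a further form as TTTGGCG and in another as TTTCGCG. None of these motifs contains another. Of the 17 windows of proliferation genes, 82.4% held CCAAT, 64.7% held the cell cycle homology element and 35.3% held the E2F core. Of the 23 windows of immature neuron genes the shares were 69.6%, 34.8% and 4.35%, and of the 9 windows of progenitor and Notch genes 55.6%, 22.2% and 0%, in the same order of motifs. Over all 32851 windows, of any gene, the shares were 37.4%, 27.6% and 5.58%. Windows of 1 gene can overlap: 6 belonged to Elavl2 and 4 to Elavl4. CCAAT and the cell cycle homology element stood together in 58.8% of the proliferation windows, 30.4% of the immature neuron windows and 11.1% of the progenitor and Notch windows, against 10.7% of all windows. The proliferation genes with the E2F core were Birc5, Cdk1, Mcm3, Mcm5, Mcm6 and Nusap1. A match is a description of letters and not a site of binding.

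The 250 bases before the start are shown for the 3 genes that passed the test in R6/2 striatum, for Bub1, the proliferation gene of smallest p, and for Ccnb1, whose window holds 2 CCAAT boxes beside a cell cycle homology element. Capitals mark CCAAT (or ATTGG, its reverse complement) and the cell cycle homology element. All 5 genes lie on the minus strand, and each sequence is written 5′ to 3′ along the gene, on GRCm38.p6. The windows are chr12:27342719-27342968 for Sox11, chrX:143933220-143933469 for the first of 2 starts of Dcx, chr2:26503823-26504072 for Notch1, chr2:127831860-127832109 for Bub1 and chr13:100786487-100786736 for Ccnb1. Sox11 carried 1 match of each kind, Dcx 1 CCAAT and Notch1 neither.
Sox11: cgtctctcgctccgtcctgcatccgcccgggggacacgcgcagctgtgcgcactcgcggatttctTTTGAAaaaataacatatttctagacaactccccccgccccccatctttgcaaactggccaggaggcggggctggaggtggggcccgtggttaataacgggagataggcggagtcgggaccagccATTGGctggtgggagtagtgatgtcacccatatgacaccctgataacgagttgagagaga
Dcx: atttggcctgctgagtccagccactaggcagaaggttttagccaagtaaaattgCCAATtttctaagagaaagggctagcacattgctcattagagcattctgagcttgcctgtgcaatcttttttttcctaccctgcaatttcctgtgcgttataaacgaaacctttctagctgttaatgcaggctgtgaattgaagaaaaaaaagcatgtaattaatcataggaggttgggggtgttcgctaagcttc
Notch1: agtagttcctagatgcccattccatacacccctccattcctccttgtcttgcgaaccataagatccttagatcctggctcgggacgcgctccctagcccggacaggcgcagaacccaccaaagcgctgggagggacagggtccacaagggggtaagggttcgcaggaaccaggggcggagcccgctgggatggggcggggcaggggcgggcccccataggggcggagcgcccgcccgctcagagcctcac
Bub1: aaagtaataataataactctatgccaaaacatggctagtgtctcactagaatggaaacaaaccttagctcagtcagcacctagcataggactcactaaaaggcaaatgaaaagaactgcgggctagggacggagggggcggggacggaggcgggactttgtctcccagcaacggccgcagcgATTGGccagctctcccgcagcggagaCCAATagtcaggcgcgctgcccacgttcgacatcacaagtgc
Ccnb1: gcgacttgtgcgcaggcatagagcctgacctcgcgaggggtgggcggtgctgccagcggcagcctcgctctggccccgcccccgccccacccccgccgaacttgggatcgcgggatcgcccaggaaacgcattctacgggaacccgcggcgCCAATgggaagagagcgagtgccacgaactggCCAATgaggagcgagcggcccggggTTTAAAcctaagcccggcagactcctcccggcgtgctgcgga

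In the main fit, which did not pair the samples, immature neuron genes held the 2 members called higher in R6/2 striatum, Sox11 and Dcx, and none called lower. Of these, only Sox11 kept its call with the replicate number as a block. Values per array are the processed signal divided by that array's 75th percentile, so that 1 is a signal at that percentile, and levels are not compared between genes. Differences are given as log2 of R6/2 minus WT with the standard error (SE) of the fit across all probes, and a probe was called at a Benjamini-Hochberg adjusted p under 0.05 over all tested probes. Of all 16881 tested genes, 1.95% were called, 0.468% higher in R6/2 and 1.49% lower. Calls among the members are read against these shares: 2 of 17 immature neuron genes were called higher, 0 of 19 proliferation genes were called in either direction, and 1 of 7 progenitor and Notch genes was called lower. Of the 43 tested members, 5 had all R6/2 arrays above all WT arrays on their brightest probe and 1 had them all below, against 7.81% and 6.72% of all tested genes.

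Sox11 encodes a transcription factor of committed neuroblasts and immature neurons. Its brighter probe (A_55_P2094721, chr12:28020087-28020146, minus strand, mm9) read 1.53, 1.68, 1.41 and 1.54 on R6/2 arrays 1 to 4, against 0.967, 1.00, 0.978 and 0.990 on WT arrays 1 to 4. The lowest R6/2 array lay well above the highest WT array, and the WT arrays hardly differed from each other. The means were 1.54 ± 0.112 in R6/2 and 0.984 ± 0.0160 in WT (SD, n = 4 each), a 1.56-fold rise with a 95% interval of 1.39 to 1.75 (log2 difference 0.64 ± 0.07 SE, limma adjusted p = 0.0104). A second probe in the same gene (A_52_P160955) read 1.01, 0.969, 1.01 and 1.17 in R6/2, against 0.690, 0.731, 0.776 and 0.730 in WT, and was called too (0.50, limma adjusted p = 0.0298). Sox11 kept its call under each of the 18 alternative settings run, including those that left out 1 array each (adjusted p 0.0027 to 0.0482). In the authors' deposited table it was the 1 member probe of 70 with an adjusted p under 0.05 (1.58-fold up, adjusted p = 0.0325).

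Dcx encodes doublecortin, the microtubule-binding protein of migrating neuroblasts. Its brightest probe (A_52_P244349, chrX:140290854-140290913, minus strand, mm9) read 1.30, 1.23, 1.04 and 1.40 in R6/2, against 0.720, 0.816, 0.831 and 0.912 in WT. The genotypes did not overlap, although R6/2 array 3 came near the highest WT array. The means were 1.24 ± 0.152 in R6/2 and 0.820 ± 0.0786 in WT (SD, n = 4 each), a 1.51-fold rise with a 95% interval of 1.26 to 1.81 (log2 difference 0.60 ± 0.11 SE, limma adjusted p = 0.0489). The call lay close to the threshold: with the replicate number as a block the adjusted p was 0.0701, and without any 1 of the 8 arrays it was 0.0619 to 0.126, with differences of 0.54 to 0.68. Without R6/2 array 3, Dcx gave 0.68 (adjusted p = 0.0619) and Sox11 0.69 (adjusted p = 0.034). Of the other Dcx probes, A_55_P2080126 read 0.135, 0.108, 0.122 and 0.169 in R6/2 against 0.0852, 0.0947, 0.112 and 0.118 in WT (0.37, limma adjusted p = 0.291), and A_52_P506493 was above background on 2 R6/2 arrays and 0 WT arrays and was not tested.

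**Figure D1:**
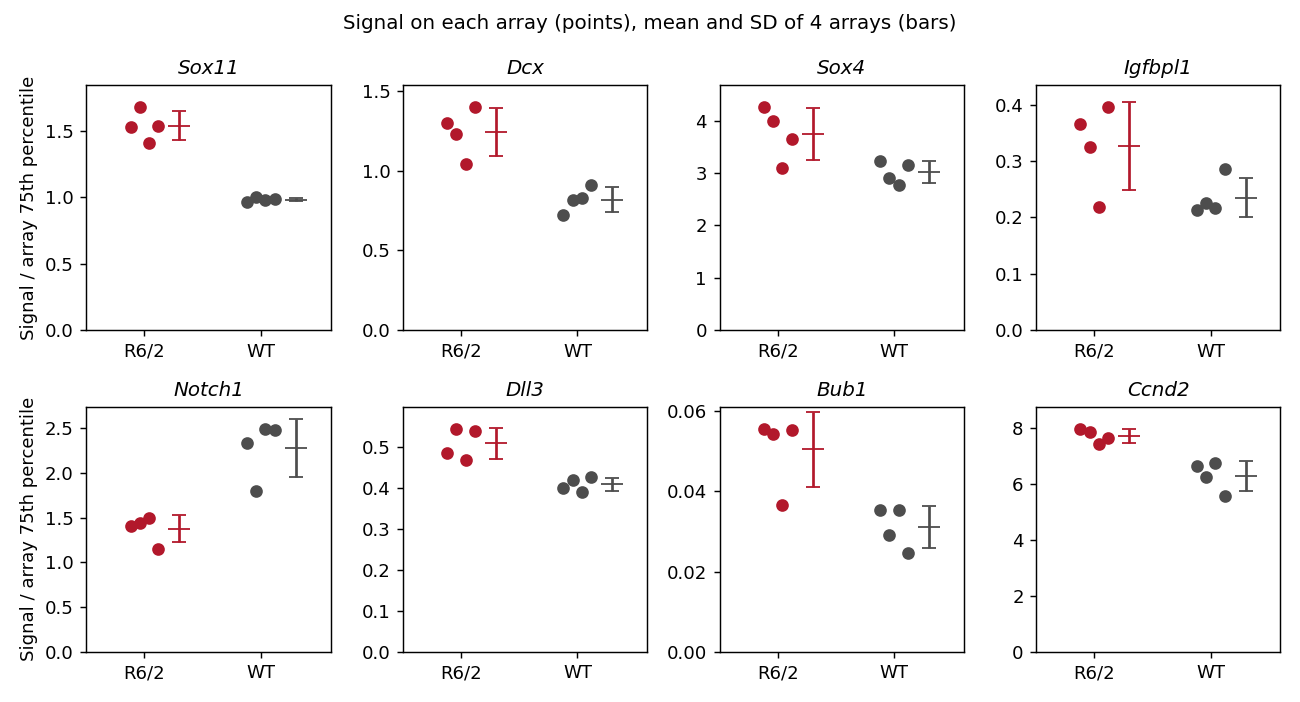
Signal of 8 member genes on each array, as the processed signal divided by the array's 75th percentile (linear axes from 0); points are arrays in the order 1 to 4, bars are the mean and SD of 4 arrays, R6/2 left and WT right. The R6/2 arrays of Sox11, at 1.41 to 1.68, and of Dcx, at 1.04 to 1.40, all lie above the WT arrays, and those of Notch1, at 1.15 to 1.49, all lie below them.

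The other immature neuron genes did not pass the test, and those of the cytoskeleton split in sign. Sox4, a transcription factor gene related to Sox11, read 4.26, 3.99, 3.09 and 3.66 in R6/2, against 3.23, 2.90, 2.78 and 3.16 in WT. On this brightest probe only R6/2 array 3 fell within the WT range (log2 difference 0.31 ± 0.11 SE, limma adjusted p = 0.215). The 3 Sox4 probes gave 0.31 to 0.38. On both dimmer probes all R6/2 arrays lay above all WT arrays, and neither was called (limma adjusted p = 0.107 and 0.191). Igfbpl1, a secreted protein gene marking neuroblasts, read 0.367, 0.325, 0.218 and 0.396 in R6/2, against 0.214, 0.225, 0.216 and 0.286 in WT (0.45 ± 0.19 SE, limma adjusted p = 0.289). Again R6/2 array 3 was the 1 R6/2 array among the WT values.

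Dpysl3, a collapsin response mediator of growth cones, read 9.59, 8.86, 7.85 and 10.8 in R6/2, against 8.53, 7.45, 6.6 and 7.98 in WT (0.28 ± 0.12 SE, limma adjusted p = 0.295). Marcksl1, an actin-regulating protein gene, read 5.01, 5.94, 6.01 and 4.76 in R6/2, against 5.19, 4.35, 4.29 and 4.73 in WT (0.22 ± 0.11 SE, limma adjusted p = 0.337). Stmn2, a microtubule-destabilising stathmin of growing axons, read 26.9, 28, 22.1 and 32.4 in R6/2, against 23.0, 23.8, 18.5 and 25.5 in WT (0.26 ± 0.14 SE, limma adjusted p = 0.390). All 3 overlapped between the genotypes.

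The remaining 10 immature neuron genes had limma adjusted p-values of 0.393 to 0.920. Differences were positive for Sp8 (0.30), a transcription factor of interneuron precursors, Dpysl5 (0.18) and Crmp1 (0.05), both relatives of Dpysl3, Cd24a (0.14), a surface protein of neuroblasts and ependymal cells, and Basp1 (0.06), a growth cone membrane protein. They were negative for Elavl4 (-0.29) and Elavl2 (-0.16), neuronal RNA-binding proteins, Stmn1 (-0.17), a stathmin, and Tubb3 (-0.16) and Tubb2b (-0.03), neuronal tubulins. A second probe of Dpysl5 read 0.0971, 0.0951, 0.110 and 0.160 in R6/2, against 0.0721, 0.0583, 0.0789 and 0.0733 in WT. That probe gave 0.68 (limma adjusted p = 0.105), with all R6/2 arrays above all WT arrays, while the brighter probe overlapped between genotypes. A second probe of Elavl4 gave -0.50 (limma adjusted p = 0.167). All told, 12 of the 17 differences were positive and their median was 0.18, against 54.4% of all tested genes positive and a median of 0.02. Of the 17, 4 had an unadjusted p under 0.05 with a positive difference and 0 with a negative one, against 9.18% and 9.8% of all tested genes. The positive count was 7 without R6/2 array 3 and 2 without R6/2 array 1, WT array 2 or WT array 3. With the replicate block the positive and negative counts were 6 and 2, and with array weights 4 and 2.

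**Figure D2:**
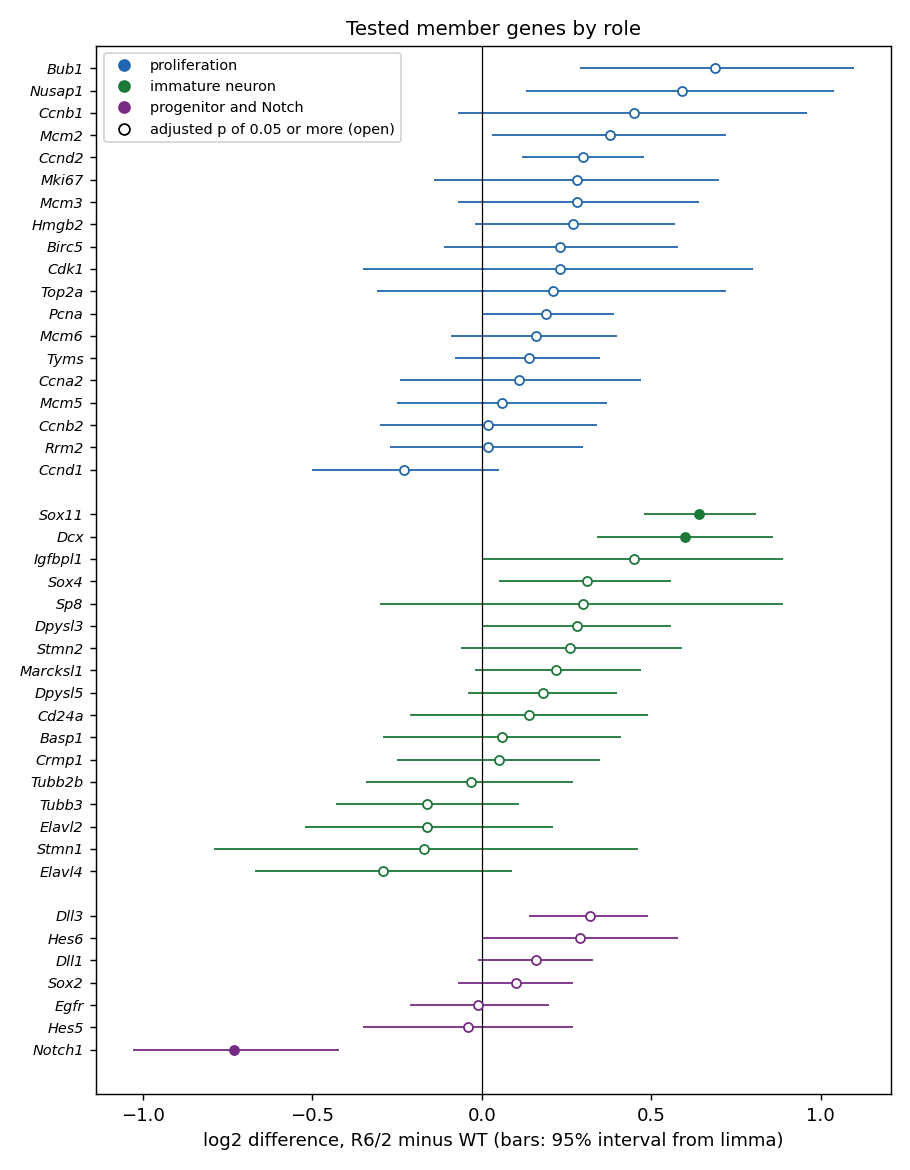
log2 difference, R6/2 minus WT, of the 43 tested member genes by role, each for its brightest probe, with the 95% interval from limma; filled points have an adjusted p under 0.05. Sox11 (0.64) and Dcx (0.60) are filled on the positive side and Notch1 (-0.73) on the negative side, and all 19 proliferation genes are open.

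Most proliferation genes had small positive differences, and none passed the test. Of the 19 tested, 18 had a positive difference, with a median of 0.23 and a range of -0.23 to 0.69. Over all tested genes, 54.4% were positive and the median was 0.02. The 18 positive proliferation genes became 15 without R6/2 array 2, and 16 without R6/2 array 1 or WT array 4. In limma 0 were called, and 5 had an unadjusted p under 0.05 with a positive difference and 0 with a negative one, against 9.18% and 9.8% of all tested genes. In the authors' deposited values, none of their probes had an adjusted p under 0.05. The count of 5 became 3 without R6/2 array 1, R6/2 array 2, R6/2 array 4 or WT array 3, and 11 without R6/2 array 3, where the median was 0.34 and the lowest adjusted p was 0.075.

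Bub1, a kinase of the mitotic checkpoint, read 0.0556, 0.0544, 0.0365 and 0.0554 in R6/2, against 0.0353, 0.0291, 0.0354 and 0.0247 in WT. All R6/2 arrays lay above all WT arrays, R6/2 array 3 only just, and the probe was well above background on 4 R6/2 and 3 WT arrays (log2 difference 0.69 ± 0.18 SE, limma adjusted p = 0.0984). With normexp background correction, which added an offset of 50 to every signal, and quantile normalization its difference was 0.17 (limma adjusted p = 0.152). Such an offset by itself shrinks the log2 differences of dim probes. Nusap1, a protein of the mitotic spindle, read 0.139, 0.148, 0.0908 and 0.136 in R6/2, against 0.101, 0.0964, 0.0802 and 0.0641 in WT (0.59 ± 0.20 SE, limma adjusted p = 0.185; 0.31 with normexp). R6/2 array 3 was again the 1 R6/2 array within the WT range.

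Ccnd2, the D-type cyclin that drives neural progenitors into the cycle, read 7.97, 7.87, 7.42 and 7.63 in R6/2, against 6.64, 6.24, 6.74 and 5.56 in WT. The genotypes did not overlap (0.30 ± 0.08 SE, 1.23-fold, limma adjusted p = 0.112). Ccnd1, the other D-type cyclin measured, was the 1 proliferation gene with a negative difference, with 1.75, 2.07, 2.21 and 2.35 in R6/2, against 2.33, 2.29, 2.29 and 2.90 in WT (-0.23 ± 0.12 SE, limma adjusted p = 0.378). The difference between these cyclins was not tested.

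Among genes of DNA replication, Mcm2, a subunit of the replicative helicase, read 0.299, 0.253, 0.202 and 0.285 in R6/2, against 0.234, 0.171, 0.181 and 0.212 in WT (0.38 ± 0.15 SE, limma adjusted p = 0.259). Pcna, the sliding clamp of DNA polymerase, read 8.34, 7.83, 7.20 and 8.32 in R6/2, against 7.21, 7.48, 6.36 and 6.66 in WT (0.19 ± 0.08 SE, limma adjusted p = 0.288). R6/2 array 3 was the lowest R6/2 array for both. The other helicase subunits Mcm3 (0.28), Mcm6 (0.16) and Mcm5 (0.06), and the nucleotide synthesis genes Tyms (0.14) and Rrm2 (0.02), overlapped between genotypes.

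The other genes of mitosis, unlike Bub1, overlapped between genotypes. Ccnb1 (0.45 ± 0.22 SE), Ccnb2 (0.02 ± 0.14) and Ccna2 (0.11 ± 0.15) are mitotic cyclins, and Cdk1 (0.23 ± 0.25) is their kinase partner. Mki67, which encodes the proliferation antigen Ki-67, gave 0.28 ± 0.18 on its brighter probe and 0.28 on the other. Top2a (0.21 ± 0.22) is a topoisomerase, Hmgb2 (0.27 ± 0.13) a chromatin protein and Birc5 (0.23 ± 0.15) the chromosomal passenger protein survivin. With normexp, whose offset by itself shrinks the differences of dim probes, the values were 0.24 for Ccnb1, 0.06 for Cdk1 and 0.13 for Top2a. The limma adjusted p was lowest for Hmgb2, at 0.331, and highest for Ccnb2, at 0.956.

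Progenitor and Notch genes held the 1 member called lower in the main, unpaired fit, Notch1, the receptor that keeps progenitors undifferentiated. Its tested probe (A_55_P2171897, chr2:26319440-26319499, minus strand, mm9) read 1.41, 1.44, 1.49 and 1.15 in R6/2, against 2.33, 1.80, 2.49 and 2.48 in WT, with no overlap. The means were 1.37 ± 0.152 in R6/2 and 2.28 ± 0.323 in WT (SD, n = 4 each), which is 1.66-fold lower in R6/2 (log2 difference -0.73 ± 0.13 SE, limma adjusted p = 0.0442). With the replicate block the adjusted p was 0.079, and the call was kept in 1 of 8 fits without 1 array, that without WT array 2 (adjusted p = 0.0415; the others 0.0738 to 0.11). Without R6/2 array 3 the difference was -0.77 (adjusted p = 0.0896). The second Notch1 probe was well above background on 0 of 8 arrays.

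Of the Notch ligands, Dll3, which acts within the cell, read 0.484, 0.543, 0.467 and 0.537 in R6/2, against 0.399, 0.418, 0.389 and 0.425 in WT. The genotypes did not overlap, but the gene did not pass the test (0.32 ± 0.08 SE, limma adjusted p = 0.0886), and its second probe gave 0.33. Dll1, a ligand shown to neighbouring cells, read 0.302, 0.337, 0.307 and 0.294 in R6/2, against 0.294, 0.273, 0.258 and 0.283 in WT (0.16 ± 0.07 SE, limma adjusted p = 0.319). Its lowest R6/2 array and highest WT array were equal to the digits given.

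Of the genes downstream of Notch, Hes5, a direct target, read 10.9, 11.2, 10.6 and 10.6 in R6/2, against 11.9, 13.6, 8.60 and 11 in WT (-0.04 ± 0.13 SE, limma adjusted p = 0.906). Its R6/2 arrays lay inside the WT range. Hes6, a relative that opposes Hes repression and favours neuronal differentiation, read 1.73, 1.77, 1.97 and 2.32 in R6/2, against 1.80, 1.55, 1.66 and 1.34 in WT (0.29 ± 0.13 SE, limma adjusted p = 0.295).

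Sox2, the transcription factor of neural stem cells, read 1.33, 1.37, 1.28 and 1.14 in R6/2, against 1.19, 1.2, 1.19 and 1.2 in WT (0.10 ± 0.08 SE, limma adjusted p = 0.557). Egfr, the growth factor receptor of activated progenitors, gave -0.01 ± 0.09 on its brightest probe (limma adjusted p = 0.980), 0.05 on a second and -0.36 on another (limma adjusted p = 0.131). On this last probe the R6/2 arrays read 0.178, 0.153, 0.162 and 0.155, all below the WT arrays at 0.248, 0.195, 0.188 and 0.206.

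Probes of the same gene gave a measure of how far 1 probe can be relied on. Of the 15 members with more than 1 tested probe, 10 had differences of 1 sign on all of them, and 5, namely Sp8, Stmn1, Egfr, Birc5 and Mcm3, had both signs. Sox11 was the only member with more than 1 called probe. For Birc5 the 3 probes gave 0.23, 0.62 and -0.12, and for Mcm3 0.28 and -0.14, so their probes did not settle a direction.

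**Figure D3:**
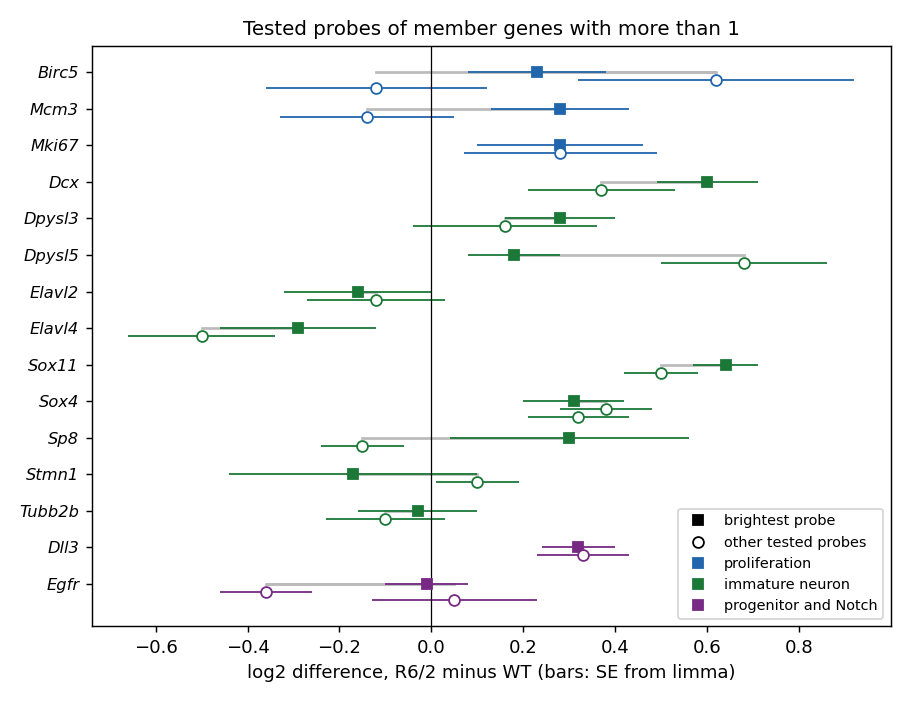
log2 difference, R6/2 minus WT, of each tested probe of the 15 member genes with more than 1 (bars: SE from limma); squares are the brightest probe of a gene and circles the others. The 2 probes of Sox11, at 0.64 and 0.50, and the 3 of Sox4, at 0.31 to 0.38, lie on 1 side of 0, while those of Birc5 run from -0.12 to 0.62.

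Across arrays of 1 genotype, many members were high or low on the same array. On each gene's brightest probe, R6/2 array 3 was the lowest R6/2 array for 16 of 19 proliferation genes and 13 of 17 immature neuron genes. WT array 1 was the highest WT array for 11 of 19 proliferation genes, and WT array 3 the lowest for 10 of 17 immature neuron genes. Other probes of a gene did not always share this: R6/2 array 3 was not the lowest on the second probes of Mcm3 and Stmn1, but was on that of Mki67. As the mean over genes of the log2 deviation from each gene's own mean, the proliferation genes stood at 0.24, 0.27, -0.18 and 0.14 on R6/2 arrays 1 to 4, against 0.02, -0.18, -0.14 and -0.16 on WT arrays 1 to 4. R6/2 array 3 thus lay within the WT range. The immature neuron genes stood at 0.15, 0.16, -0.18 and 0.19 in R6/2, against -0.02, -0.06, -0.26 and 0.02 in WT, and here too R6/2 array 3 was the 1 R6/2 array within the WT range.

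The samples' numbers pair them by position on the slide, and differences between arrays of the same number are given as a description. For the proliferation mean these R6/2 minus WT differences were 0.21, 0.45, -0.04 and 0.30 for numbers 1 to 4, and for the immature neuron mean 0.17, 0.21, 0.08 and 0.16. Sox11 gave 0.66, 0.75, 0.53 and 0.64, and Dcx 0.86, 0.59, 0.33 and 0.62. Notch1 gave -0.72, -0.33, -0.75 and -1.11. These 3 called genes had no overlap between genotypes, so any pairing had to give the same sign throughout, which adds no support to their calls. Bub1, also without overlap, gave 0.66, 0.90, 0.05 and 1.17, and so was near 0 in number 3.

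**Figure D4:**
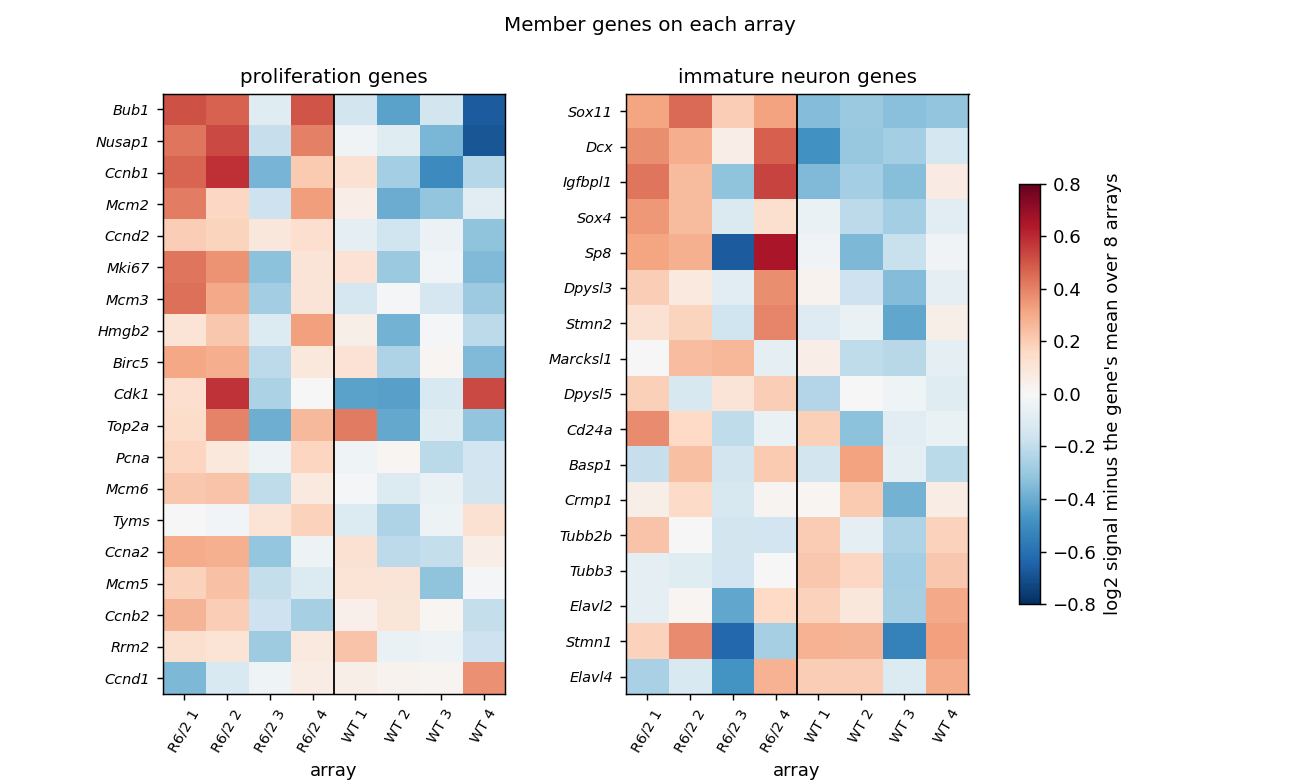
log2 signal of each tested proliferation gene (left) and immature neuron gene (right) on each array, minus the gene's mean over 8 arrays; rows are ordered by the difference between genotypes, and R6/2 arrays stand left of the line. For most genes the column of R6/2 array 3 is bluer than the other R6/2 columns, with means of -0.18 for both roles.

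Further genes of the same processes, taken from wider lists, were read beside the members. Of 50 other cell cycle genes, 45 were tested, 0 were called in limma, 32 differences were positive and the median was 0.16. Of these, 11 had an unadjusted p under 0.05 with a positive difference and 1 with a negative one, against 9.18% and 9.8% of all tested genes. With the replicate block the counts of 11 and 1 were 12 and 5. First by p were Cenpe, a kinetochore motor (0.31 ± 0.08 SE, limma adjusted p = 0.119), and Foxm1, a transcription factor of mitotic genes (0.32 ± 0.09 SE, limma adjusted p = 0.143). Cenpe read 0.722, 0.779, 0.649 and 0.662 in R6/2, against 0.595, 0.581, 0.518 and 0.570 in WT. R6/2 array 3 was the lowest R6/2 array for 32 of the 45 genes and WT array 1 the highest WT array for 28. The count of 11 ran from 5 without R6/2 array 2 to 17 without WT array 1; it was 6 without R6/2 array 4 or WT array 3, and 7 without WT array 2 or WT array 4.

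The other neuroblast genes were mixed in sign. Of 23 tested, 0 were called in limma, 13 differences were positive and the median was 0.08. An unadjusted p under 0.05 was found for 2 on the positive side and 5 on the negative side, against 9.18% and 9.8% of all tested genes. The positive count was 0 without R6/2 array 1, R6/2 array 2 or WT array 2, and 1 without R6/2 array 4, WT array 1 or WT array 4. The negative count was 3 without R6/2 array 4 or WT array 4, and the median was 0.01 without WT array 3, 0.03 without R6/2 array 1 and 0.05 without R6/2 array 2. The lowest limma adjusted p on this list passed the threshold without WT array 3 (0.0391), with normexp (0.0255), array weights (0.0418) or an intensity trend (0.0356), and with the mean of a gene's probes (0.0378). The smallest p-values belonged to genes with negative differences, Dclk1 (-0.44 ± 0.10 SE, limma adjusted p = 0.0742), a doublecortin-like kinase, and St8sia2 (-0.38 ± 0.10 SE, limma adjusted p = 0.0938), an enzyme that adds polysialic acid to NCAM. Of 24 other progenitor and Notch genes, 0 were called in limma, 14 were positive and the median was 0.03. That median was 0.00 to 0.06 without 1 array. Here 1 unadjusted p was under 0.05 on the positive side and 2 on the negative side, against 9.18% and 9.8% of all tested genes. The smallest p-values were those of Jag1, a Notch ligand (-0.43 ± 0.12 SE), and Gli3, a transcription factor of Hedgehog signalling (-0.32 ± 0.09 SE), both with a limma adjusted p of 0.121. For both, all R6/2 arrays lay below all WT arrays.

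**Figure D5:**
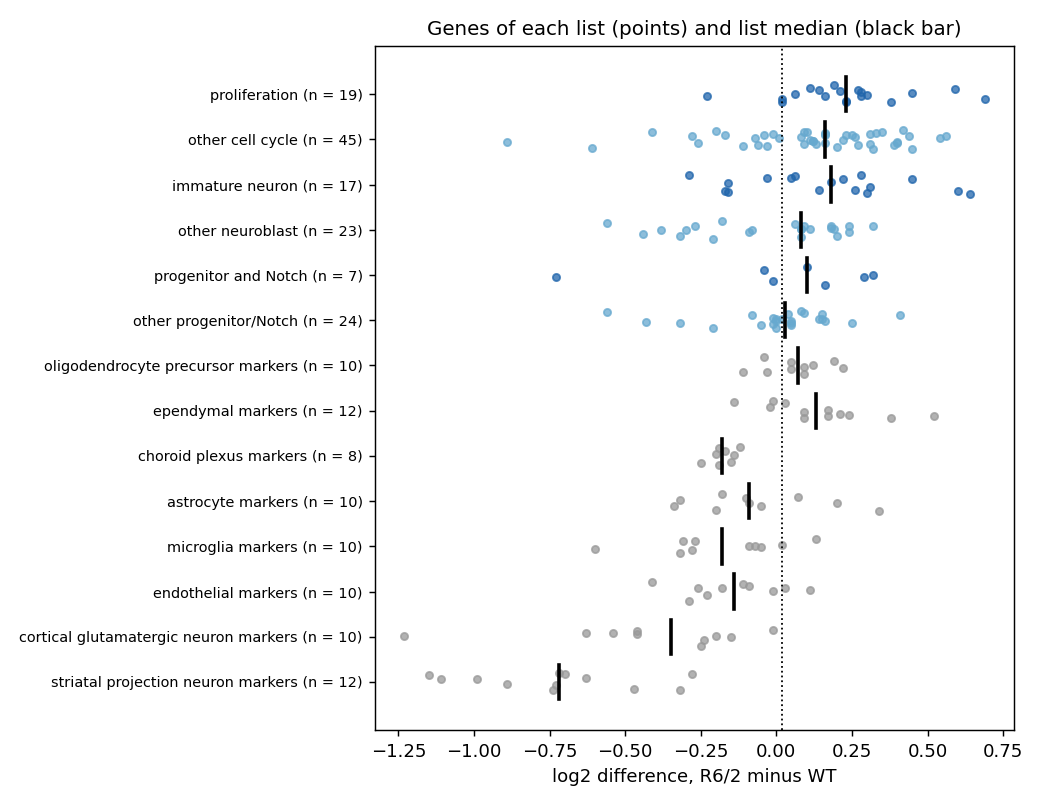
log2 difference, R6/2 minus WT, of each tested gene in the 3 member roles (dark blue), the wider lists of the same processes (light blue) and the marker lists of cell types (grey); points are genes, black bars are list medians and the dotted line is the median of all tested genes, 0.02. Medians are 0.23 for proliferation genes, 0.16 for other cell cycle genes, 0.18 for immature neuron genes and -0.72 for striatal projection neuron markers.

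Markers of the other cells that a striatal dissection can hold were measured on the same arrays. Those of oligodendrocyte precursors, which divide in the striatum, had 0 of 10 genes called, a median difference of 0.07 and a summed signal of 42.6 to 59.6 in R6/2 and 44.7 to 52.7 in WT. The smallest p-values were those of Olig2 (0.22, limma adjusted p = 0.389) and Olig1 (0.19, limma adjusted p = 0.536), lineage transcription factors. Markers of ependymal cells, which line the ventricle, had 0 of 12 called, a median of 0.13 and a summed signal of 14.8 to 17.5 in R6/2 and 9.82 to 18 in WT, with the smallest p-values for Ak7 (0.52, limma adjusted p = 0.239) and Tmem212 (0.38, limma adjusted p = 0.513). Markers of the choroid plexus, which floats in the ventricle, had 0 of 8 called, a median of -0.18 and a summed signal of 47.3 to 191 in R6/2 and 56.6 to 246 in WT, with Ttr (-0.25, limma adjusted p = 0.869) and Clic6 (-0.14, limma adjusted p = 0.878) first by p. Leaving out 1 array turned the sign of the choroid plexus median, to 0.18 without R6/2 array 2, 0.15 without WT array 1 and 0.10 without WT array 3, while it was -0.52 without R6/2 array 1 or WT array 2 and -0.42 without WT array 4. The ependymal median was -0.05 without WT array 2, 0.30 without WT array 1, 0.26 without WT array 3 and 0.08 without WT array 4, and that of oligodendrocyte precursors was 0.03 without R6/2 array 2 or R6/2 array 3, 0.14 without R6/2 array 4 and 0.11 without WT array 1. When only probes above background on all 8 arrays were kept, the ependymal list fell from 12 genes to 11. Its lowest limma adjusted p was then 0.483, against 0.239, and its median 0.09. The other lists of these 3 kept all their genes. Ak7 was dim, at 0.0363 to 0.0639 in R6/2 and 0.0277 to 0.0437 in WT.

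The ventricular markers varied more between arrays than the members did. Ependymal genes stood at mean log2 deviations of -0.05 to 0.27 in R6/2 and -0.66 to 0.28 in WT, and choroid plexus genes at -1.15 to 0.86 in R6/2 and -0.97 to 1.05 in WT. By number 1 to 4, the R6/2 minus WT difference was -0.01, 0.72, -0.27 and 0.13 for ependymal genes and -0.18, -0.18, -0.89 and 0.54 for choroid plexus genes. The ependymal difference was highest in number 2 and lowest in number 3, as was that of the proliferation mean; its part in the result was not tested.

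Of the remaining cell type lists, 10 markers each of astrocytes, microglia, endothelium and cortical glutamatergic neurons had 0 called, with medians of -0.09, -0.18, -0.14 and -0.35. Without WT array 3 the endothelial median was 0.02 and the microglial median -0.07. The endothelial median was also -0.24 without WT array 1, -0.23 without R6/2 array 3 and -0.08 without R6/2 array 4, and the microglial median -0.09 without R6/2 array 1. The astrocyte median was -0.03 without WT array 4, and the cortical median -0.20 without R6/2 array 3 and -0.53 without R6/2 array 4. Summed signals of astrocyte markers were 314 to 337 in R6/2 and 335 to 377 in WT, and of microglial markers 124 to 141 and 141 to 166. Those of endothelium were 36.4 to 42.9 in R6/2 and 35.3 to 85.4 in WT, and of cortical neurons 11.6 to 22.7 and 19.6 to 25.9. Such sums, for these and the other lists, lean on the brightest probes and are not levels of a cell type. Aldoc alone read 198 to 212 in R6/2 and 229 to 253 in WT, and Itgam 65.6 to 79.8 and 81.8 to 93.4. Ly6c1 read 57 on WT array 3, against 14.9 to 16.5 on the other WT arrays. The smallest p-values were those of the glutamate transporter Slc1a2 (-0.32, limma adjusted p = 0.0897) and Gfap (0.34, limma adjusted p = 0.168) in astrocytes, of Itgam (-0.28, limma adjusted p = 0.146) and C1qb (-0.60, limma adjusted p = 0.313) in microglia, of Cldn5 (-0.41, limma adjusted p = 0.445) and Esam (-0.29, limma adjusted p = 0.587) in endothelium, and of Nrn1 (-1.23, limma adjusted p = 0.0731) and Slc17a7 (-0.63, limma adjusted p = 0.208) in cortical neurons. The lowest adjusted p passed the threshold for cortical neurons with normexp (0.0352), array weights (0.0431) or an intensity trend (0.0397), and for astrocytes with an intensity trend (0.0412) or the mean of a gene's probes (0.0303). Cortical markers stood lowest on R6/2 array 3, at a mean deviation of -0.72, the array on which both member roles were also low; its part in the result was not tested. The summed signal of the striatal projection neuron markers was 355 to 488 in R6/2 and 708 to 822 in WT, without overlap.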

How the data were processed

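Striatal RNA was measured on 8 Agilent 1-colour arrays, 4 R6/2 and 4 WT, grouped by the genotype in the labels. Per the file headers, Agilent Feature Extraction 10.7.3.1 gave the deposited intensity values, and its processed signal is background-subtracted. The authors also deposited a table of log2 values, in which each array differed from the values used here by a constant (largest deviation 1.88e-06 around it; column medians -3.48 to -3.27), and, per the file headers, p-values of an unpaired comparison and unsigned fold values beside a column of directions. The scale of that table is log2 and its direction that of R6/2 relative to WT; its centring is a constant per array.

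Here, the processed signal was divided by its 75th percentile over the non-control spots of the array and put on the log2 scale. Spots marked non-uniform or population outliers were left out, and spots of a probe were averaged. Probes entered the test if at least 4 of the 8 arrays, of either genotype, read well above background. Differences were tested two-sided with limma 3.58.1 in R 4.3.3, with genotype as the only term, and adjusted by Benjamini-Hochberg over 35121 probes. A gene was represented by its brightest tested probe. The number of arrays limits the precision. Of the 55681 probes, 26762 took their name from an accession and 5056 from a gene number, both looked up in RefSeq's gene table (GRCm38.p6), while 373 kept the scanner file's symbol and 23490 were left unnamed. Probe positions were read from the scanner files (mm9), and exon or UTR annotation on that build was not used here. Promoter sequences are from RefSeq (GRCm38.p6).

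Same-numbered arrays deviated together: the correlation of their deviations from the genotype means was 0.15 to 0.35 in the 4 pairs, against -0.18 to 0.03 between other arrays. The numbers are positions along the slide rows. The main fit, which gave the reported errors, intervals, p-values and calls, did not use this pairing. A fit with the replicate number as a block was run as an alternative, and there Sox11 was the only member called.

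The members, lists and the naming rule were chosen with earlier results of these data known. Values in every sample are given for called members and up to 5 more of each role by smallest p, and for a few others (Ccnd1, second probes) chosen after their values were seen. Of each other list, called genes are named, up to 4, or the 2 of smallest p. Alternatives varied the background correction, normalization, centring, filter, weights, intensity trend, pairing, table, probe summary and the arrays included.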

Additional observations from a re-analysis of the deposited data

Results flagged for a closer look

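The brightest probes of 43 genes in each genotype gave 86 groups of 4 arrays. In 6 groups, an array's gap to its nearest neighbour took up more of the group's range than Dixon's 95% critical value. Gaps and ranges were taken on log2 values, while signals are printed on the linear scale. Chance flags about 1 in 20 groups, so 6 of 86 is close to that rate. In R6/2 the array was number 3, the lowest, for each of the 3 genes concerned: Bub1 (gap 0.948 of the range, 0.0365 against 0.0544 to 0.0556 on the others), Rrm2 (0.893) and Nusap1 (0.83). All 3 are proliferation genes. In WT, array 3 was the lowest for Stmn1 (0.935) and Tubb3 (0.89), both immature neuron genes. The low value of Stmn1 was not seen on its second probe, which read 39.5, 41.3, 42.1 and 40.3 on WT arrays 1 to 4. WT array 4 was the highest for Ccnd1 (0.931), at 2.90 against 2.29 to 2.33 on the other WT arrays.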

How the results depend on the processing

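Of the 43 tested members, all but Bub1 were refitted under 18 alternatives, and Bub1 under 17, since its probe was not above background on all 8 arrays. Sox11 was called in all 18, and no member outside Sox11, Dcx and Notch1 was called in any. The call of Dcx was lost with no filter on dim probes (difference 0.60, adjusted p = 0.121), with the replicate block (0.60, 0.0701) and with the mean of a gene's probes (0.49, 0.114), and that of Notch1 with median centring (-0.70, adjusted p = 0.0517), no filter (-0.73, 0.111) and the replicate block (-0.73, 0.079). The count of immature neuron genes called higher was thus 1 under those 3 settings and 1 in every fit without 1 array, and the count of progenitor and Notch genes called lower was 0 with median centring, no filter or the block and 0 to 1 without 1 array. The median of the progenitor and Notch genes was 0.06 to 0.15 without 1 array. The proliferation counts were 0 throughout. Differences of dim proliferation probes were smaller with normexp (Bub1 0.17, Nusap1 0.31). The offset of 50 used there shrinks the differences of dim probes by itself, so this setting cannot test them. The replicate block changed no other member's call.

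Over all genes, the number called was 330 as reported, 778 with normexp and quantile normalization, 650 with an intensity trend, 589 with array weights, 177 with the replicate block, 81 with no filter and 78 to 319 without 1 array. With normexp, 39.5% of calls were higher in R6/2, against 23.9% as reported. The cause was not tested.

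Members with differences near 0 changed sign. Egfr gave 0.02 with normexp, 0.00 with quantile normalization, 0.02 with median centring, 0.00 with array weights and 0.01 in the authors' deposited log2 table, Rrm2 0.00 with normexp and Crmp1 -0.01 with array weights. Without 1 array, the fits ran from -0.06 to 0.04 for Egfr, -0.04 to 0.11 for Rrm2, -0.07 to 0.11 for Ccnb2, -0.04 to 0.13 for Mcm5, -0.01 to 0.18 for Basp1, -0.37 to 0.02 for Stmn1, -0.12 to 0.03 for Tubb2b, -0.16 to 0.06 for Hes5 and -0.07 to 0.12 for Crmp1. The slide and scan could not be fitted as a block, because all arrays share them.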
